A study of Homo sapiens with 6 samples.

Results

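Small nucleolar RNA (snoRNA) genes were compared between K562 lines that carried murine Pu.2 and lines with an empty vector. K562 is a human chronic myelogenous leukemia line with erythroid features, and Pu.2 is a transcript that encodes an N-terminally truncated form of the hematopoietic factor PU.1. The 3 pEF1α-Pu.2 lines and the 3 pEF1α vector lines were each grown from 1 clone after electroporation and puromycin selection, so every line is a monoclonal line and differences between clones are part of the spread within a group. The plasmid of both groups carries the EF1α promoter. The labels name an insect-cell medium for these cultures, while the methods of the study give RPMI for K562 cells. RNA from every line was measured on its own Human Gene 1.0 ST array (Affymetrix), and each probe set has 1 deposited value per line on a log2 scale.

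The members were the probe sets annotated with a symbol that begins with SNORD or SNORA followed by a number and with no symbol of another kind. There were 202 of these among the 33297 probe sets of the array. Of the 202, 135 belonged to the C/D class (SNORD), 66 to the H/ACA class (SNORA) and 1 carried symbols of both classes (SNORA33 and SNORD101). Another 51 probe sets listed a snoRNA beside a second gene, mostly its host, and were counted apart because their signal cannot be assigned to the snoRNA. Some members cannot be told from each other, since 15 C/D and 6 H/ACA probe sets shared all 6 values with another member, which left 126 and 63 distinct profiles. These copies include the 5 probe sets of the SNORD3 family and the pair of probe sets for SNORD62A and SNORD62B.

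SnoRNAs are short nuclear RNAs that guide the modification of ribosomal RNA. C/D snoRNAs bind fibrillarin and guide ribose methylation, whereas H/ACA snoRNAs bind dyskerin and guide the change of uridine to pseudouridine. A few, such as the U3 snoRNA (SNORD3), are needed for cleavage of the ribosomal RNA precursor rather than for modification. Most human snoRNAs lie in introns of host genes, many of which encode ribosomal proteins, and are trimmed from the excised intron. SnoRNAs lack a poly(A) tail. The labels name the IVT Express kit for labelling, which primes from such tails, beside the insect-cell medium that differs from the methods. The methods of the study name no labelling kit for these arrays, so how the RNA was primed is uncertain. The silica columns used here retain short RNAs poorly. A value can thus hold mature snoRNA, longer precursor or intron of the host. These sources cannot be told apart on these arrays.

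GAS5, SNHG1 and SNHG5 are noncoding hosts of several snoRNAs described here. Transcripts of many snoRNA hosts and ribosomal protein genes begin with a cytidine followed by a run of pyrimidines, known as a terminal oligopyrimidine start. The sequences at the starts of GAS5, SNHG1 and SNHG5 are shown from 30 bases before to 30 bases from the start onward. They are on the transcribed strand (RefSeq, GRCh38.p14). Whether such a start relates to the levels of their snoRNAs was not tested. Capitals mark the annotated first base and each C or T that follows it without a break.
SNHG1 (chr11:62855856-62855915, minus strand): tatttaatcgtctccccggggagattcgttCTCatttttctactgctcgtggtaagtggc
GAS5 (chr1:173869016-173869075, minus strand): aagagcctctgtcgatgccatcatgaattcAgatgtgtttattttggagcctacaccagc
SNHG5 (chr6:85678704-85678763, minus strand): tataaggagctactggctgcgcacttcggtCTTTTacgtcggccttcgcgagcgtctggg
A C at the annotated start followed by 4 letters that are each C or T was found for 22 of the 48 hosts with a sequence (45.8%), against 4.07% of all 35116 starts and 5.14% of all 27305 genes. It was found for 11 of the 15 ribosomal protein hosts and for 3 of the 10 noncoding hosts. Of the sequences shown, that of SNHG5 matched and those of GAS5 and SNHG1 did not. The search covered the transcribed strand at the annotated start alone, so a transcript that begins at another base would be missed. A match is a description of the letters.

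No snoRNA probe set of either class differed between pEF1α-Pu.2 and vector lines after adjustment over all probe sets (limma with Benjamini-Hochberg adjustment at 0.05). Over the whole array, 0.03% of probe sets were called higher and 0.0481% lower in pEF1α-Pu.2 lines, which is 10 and 16 probe sets. The smallest adjusted p was 0.243 among C/D members (SNORD61) and 0.315 among H/ACA members (SNORA62). At an unadjusted p under 0.05, 2 C/D members were higher and 6 lower in pEF1α-Pu.2 lines, against 4.05% and 4.49% of all probe sets, and 1 H/ACA member was higher and 4 lower. As shares of the class, these were 1.48% and 4.44% of the C/D members and 1.52% and 6.06% of the H/ACA members.

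The median log2 difference (pEF1α-Pu.2 minus pEF1α) was 0.00254 over the 135 C/D members, 0.0122 over the 66 H/ACA members and 0.0250 over all probe sets. The interquartile range of the C/D members was -0.12 to 0.09 and that of the H/ACA members -0.19 to 0.17, against -0.11 to 0.14 over all probe sets. A difference of more than 2-fold was seen for 2 C/D and 3 H/ACA members, all 5 lower in pEF1α-Pu.2 lines. The spread between lines of a group had a median SD of 0.24 for C/D, 0.26 for H/ACA and 0.19 for all probe sets. The C/D members include 55 copies from the tandem families described below, 53 of them under the median level of the array. The other 80 had an interquartile range of -0.28 to 0.12 and a median SD of 0.35. For comparison, the smallest difference called anywhere on the array was 1.03 on the log2 scale in size.

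**Figure D1:**
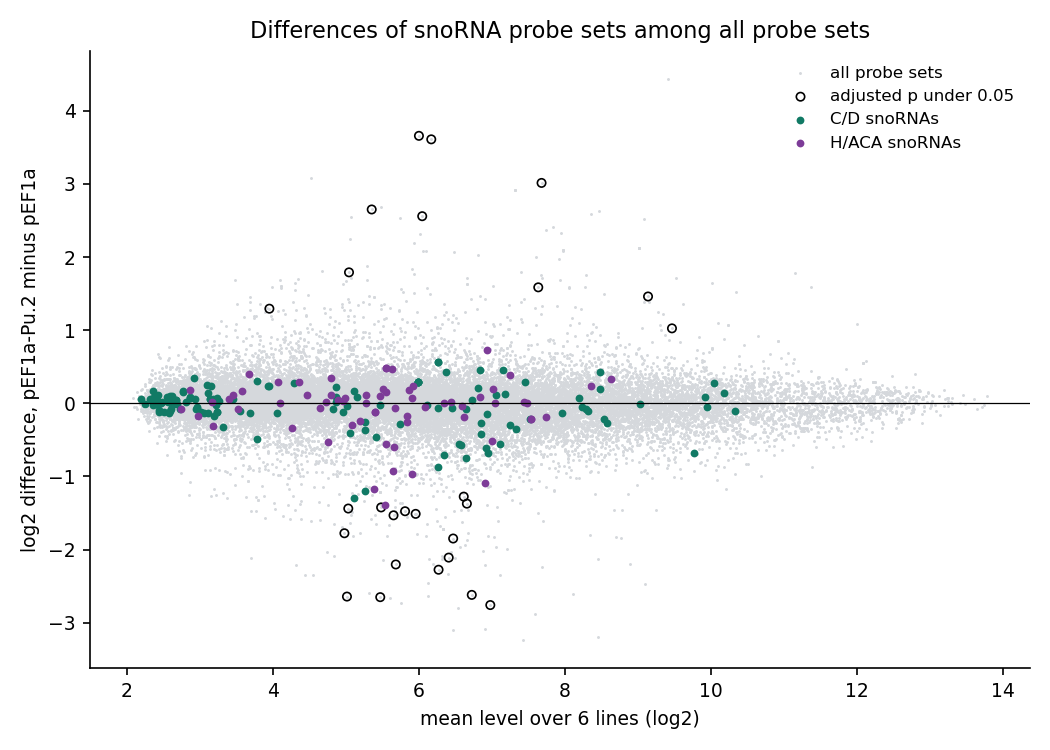
Log2 difference (pEF1α-Pu.2 minus pEF1α, y axis) against the mean level over 6 lines (log2, x axis) for all 33297 probe sets (grey), the 26 called ones (open circles), the 135 C/D members (green) and the 66 H/ACA members (purple). The snoRNAs lay between -1.39 and 0.72 and included none of the called probe sets.

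Of the C/D members, 6 had all pEF1α-Pu.2 lines above all vector lines and 6 had them below (4.44% each), where 7.42% and 5.91% of all probe sets did so. Of the H/ACA members, 1 lay above (1.52%) and 6 lay below (9.09%). The C/D shares were under those of the array, but none of the 55 tandem copies was among these members. Of the other 80 C/D members, 7.5% lay above and 7.5% below. The H/ACA share below was over that of the array, with SNORA10 counted for each of its probe sets. The 19 probe sets without overlap held 17 different snoRNA entries, because SNORD62A/B and SNORA10 were each measured by 2 probe sets with equal values.

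SNORD61, a C/D snoRNA of an RBMX intron, had the smallest unadjusted p of all members. Its levels were 4.74, 4.71 and 4.55 in pEF1α-Pu.2 lines, against 6.23, 6.09 and 5.27 in vector lines. The groups did not overlap, and the third vector line lay nearest to the pEF1α-Pu.2 lines. The log2 difference was -1.20 ± 0.25 (SE, n = 3 each), or 0.436-fold, with an adjusted p of 0.243 from limma. Without the third vector line the difference was -1.49 with an adjusted p of 0.00867, and SNORD61 was then the only member called in either class. Leaving out that line also raised the calls on the whole array to 100 higher and 122 lower, so this library decided the call.

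The other 5 of the 6 C/D members whose pEF1α-Pu.2 lines all lay below the vector lines came from introns of ribosomal protein or heat shock protein genes. SNORD36B, from RPL7A, had levels of 5.12, 3.69 and 4.59 in pEF1α-Pu.2 lines and 5.20, 5.92 and 6.18 in vector lines. The first pEF1α-Pu.2 line almost met the first vector line, and the log2 difference of -1.30 ± 0.40 had an adjusted p of 0.432. SNORD43, from RPL3, which encodes a protein of the large ribosomal subunit, had levels of 6.92, 6.41 and 6.50 in pEF1α-Pu.2 lines and 7.36, 6.98 and 7.53 in vector lines. Its log2 difference was -0.68 ± 0.20 with an adjusted p of 0.407. The other members of RPL3, SNORD83A and SNORD83B, had smaller differences of -0.25 ± 0.14 and -0.29 ± 0.15 without overlap, and SNORD63 of HSPA9 one of -0.18 ± 0.12 at levels near 3.

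SNORD4B, from RPL23A, was the C/D member with higher levels in all pEF1α-Pu.2 lines and the smallest p among those. It had 8.74, 8.91 and 8.45 in pEF1α-Pu.2 lines and 8.20, 8.24 and 8.39 in vector lines, a log2 difference of 0.43 ± 0.15 with an adjusted p of 0.504. SNORD62A and SNORD62B, which cannot be separated, had 6.40, 6.82 and 6.40 in pEF1α-Pu.2 lines and 6.37, 6.07 and 5.50 in vector lines. The gap between the groups was small beside the range of the vector lines (difference 0.56 ± 0.24, adjusted p 0.585). SNORD60 (0.28 ± 0.13), SNORD37 of EEF2 (0.26 ± 0.12) and SNORD13P1 (0.04 ± 0.10), a pseudogene of the U13 snoRNA, completed this group, all at levels under 4.5, where a low signal limits what can be measured.

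Among H/ACA members, SNORA62, one of the snoRNAs of RPSA, had the lowest log2 difference. Its levels were 4.63, 5.53 and 4.37 in pEF1α-Pu.2 lines, against 5.74, 6.56 and 6.40 in vector lines. The groups were separated by 0.211 on the log2 scale, and the difference was -1.39 ± 0.34 (adjusted p 0.315). SNORA6, which lies in another intron of the same host, had 7.52, 7.76 and 7.66 in pEF1α-Pu.2 lines and 7.57, 7.89 and 8.05 in vector lines, which overlap.

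SNORA21, from RPL23, had 4.94, 4.75 and 4.74 in pEF1α-Pu.2 lines and 5.64, 5.55 and 6.73 in vector lines. The pEF1α-Pu.2 lines lay close together and the third vector line stood above the other two (difference -1.17 ± 0.31, adjusted p 0.358). SNORA67, from EIF4A1, which encodes a translation initiation factor, had 7.02, 6.30 and 5.76 in pEF1α-Pu.2 lines and 7.40, 7.71 and 7.26 in vector lines. Here the spread was in the pEF1α-Pu.2 lines (difference -1.09 ± 0.31, adjusted p 0.399). SNORA16B had 5.19, 5.14 and 5.95 in pEF1α-Pu.2 lines and 5.96, 6.50 and 6.70 in vector lines, so that the third pEF1α-Pu.2 line came within 0.0143 of a vector line (difference -0.96 ± 0.27, adjusted p 0.404).

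SNORA10, from RPS2, had 7.48, 7.44 and 7.38 in pEF1α-Pu.2 lines and 7.69, 7.49 and 7.75 in vector lines. Its spread was narrow in both groups and its difference small (-0.21 ± 0.12, adjusted p 0.697). SNORA70F was the only H/ACA member with all pEF1α-Pu.2 lines above all vector lines. It had 3.86, 3.80 and 3.97 in pEF1α-Pu.2 lines and 3.44, 3.42 and 3.56 in vector lines, a difference of 0.40 ± 0.11 (adjusted p 0.385) at a low level.

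**Figure D2:**
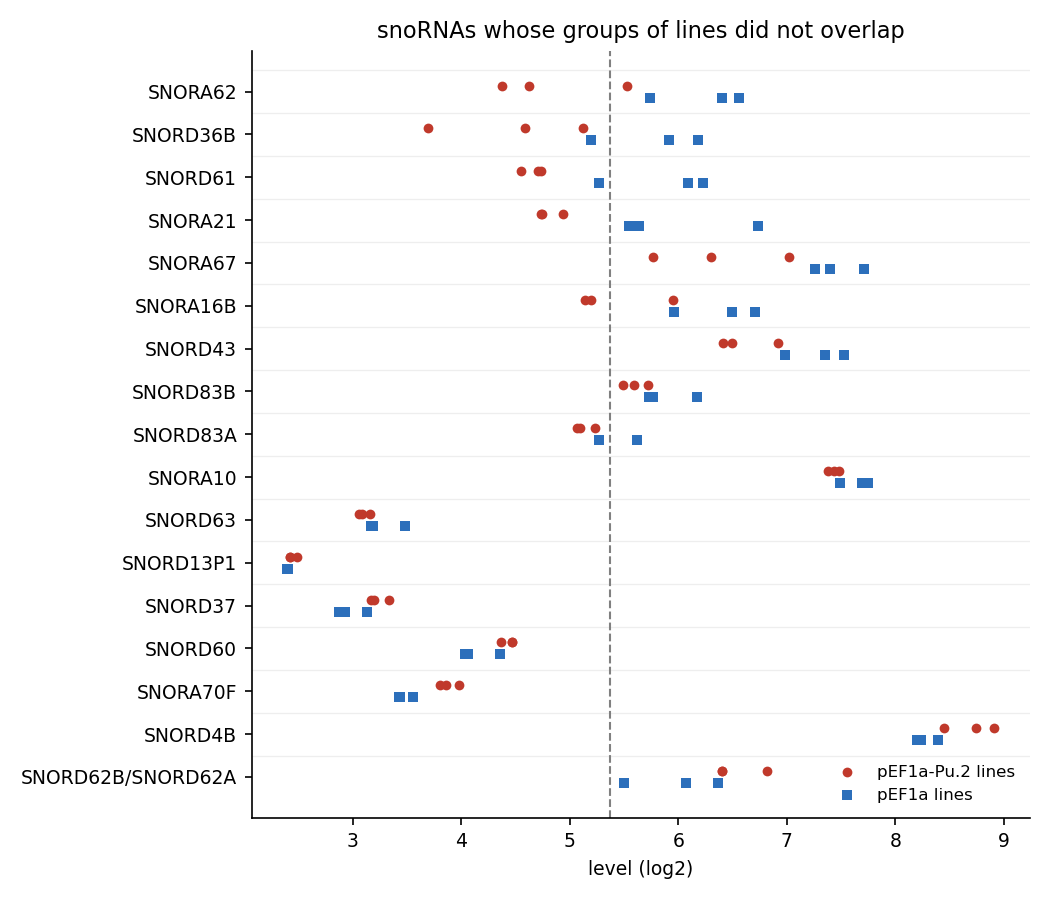
Level of each line (log2, x axis) for the 17 snoRNA entries whose groups of lines did not overlap, with pEF1α-Pu.2 lines as red circles above vector lines as blue squares. The dashed line is the median level of all probe sets (5.37), and the widest gaps belong to members with lower pEF1α-Pu.2 levels, such as SNORD61 and SNORA21.

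The snoRNAs listed for processing of the ribosomal RNA precursor overlapped between the groups. Whether each of them takes part in its cleavage was not tested. The U3 snoRNA, measured by 5 probe sets of equal values that stand for SNORD3 copies, had 6.41, 6.06 and 5.93 in pEF1α-Pu.2 lines and 5.56, 5.80 and 6.15 in vector lines. SNORD13 (U13) had 6.90, 6.60 and 7.07 in pEF1α-Pu.2 lines and 6.77, 6.87 and 7.37 in vector lines. In both, the third vector line was the highest of the vector lines.

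SNORD14C and SNORD14E, copies of the U14 snoRNA within HSPA8, overlapped as well. SNORD14C had 9.48, 10.38 and 10.04 in pEF1α-Pu.2 lines and 9.64, 9.78 and 10.21 in vector lines, and SNORD14E had 8.29, 8.80 and 8.23 in pEF1α-Pu.2 lines and 8.31, 8.65 and 8.98 in vector lines. SNORD22 and SNORA73A were measured only together with their hosts SNHG1 and SNHG3, and in both of those probe sets the first vector line was lowest and the third highest. The probe set of SNHG3 and SNORA73A had 7.11, 8.50 and 7.61 in pEF1α-Pu.2 lines and 6.48, 8.02 and 8.66 in vector lines. SNORD118 (U8) and SNORA73B were not analysed here.

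The tandem families are copies of C/D snoRNAs in imprinted regions, with SNORD113 and SNORD114 on chromosome 14 and SNORD115 and SNORD116 on chromosome 15, in the Prader-Willi region. SNORD115 is known for expression in brain. They made up 55 of the 135 C/D members, namely 2, 4, 23 and 26 probe sets. Of the 55, 53 had a mean level under the median of the array, so for most of them a change would be hard to measure. The 2 exceptions were SNORD116-15 and the probe set of SNORD116-6 and SNORD116-2.

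SNORD116-15 had 6.98, 6.94 and 7.28 in pEF1α-Pu.2 lines and 6.94, 6.42 and 6.49 in vector lines. The first vector line met the second pEF1α-Pu.2 line, so that the groups overlapped, and the adjusted p was 0.543. The highest of the other families stayed low in every line, with SNORD115-32 between 3.01 and 3.38 in pEF1α-Pu.2 lines and between 2.997 and 3.10 in vector lines. SNORD114-3 lay between 3.42 and 3.60 in pEF1α-Pu.2 lines and between 3.40 and 3.82 in vector lines, and SNORD113-3 between 2.90 and 2.97 in pEF1α-Pu.2 lines and between 2.81 and 3.20 in vector lines. The median log2 difference of the 80 C/D members outside these families was -0.06, against 0.03 for the 55 tandem copies.

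Host genes were set beside their snoRNAs. Of 59 listed hosts, 35 had a probe set with that symbol alone, and 23 of those also had at least 1 member, 38 members in all. None of the 23 hosts was called, and 1 was higher and 4 were lower in pEF1α-Pu.2 lines at an unadjusted p under 0.05. The 23 host differences ranged over -0.49 to 0.42 with a median of -0.06, while the 38 snoRNAs had a median of -0.09. The sign of host and snoRNA was the same for 27 of the 38. These pairs are not independent, because members of a host share its value and SNORA10 was counted for each of its probe sets. Also, 15 of the 23 hosts lay below 0. Across the 23 hosts, Pearson's r between the host's difference and the mean difference of its snoRNAs was 0.50 and Spearman's rho 0.46, as a description of genes measured in the same 6 lines.

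RPS3 and RPL23, which encode proteins of the small and the large ribosomal subunit, were among the hosts with the lowest differences. RPS3 had a difference of -0.49 ± 0.16 (adjusted p 0.477) and its snoRNAs SNORD15A and SNORD15B had -0.87 ± 0.31 and -0.56 ± 0.33. RPL23 had -0.43 ± 0.17 (adjusted p 0.559), with lower values for SNORA21 as given above. RPL7A, in contrast, had -0.07 ± 0.11 while SNORD36B had -1.30, and the host RPL23A had 0.03 ± 0.13 while SNORD4B had 0.43.

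Hosts with 3 or more members showed both patterns. The 3 members of RPL3 all lay lower in pEF1α-Pu.2 lines, and RPL3 itself had -0.14 ± 0.12 with overlap. The 3 of RPL23A had differences of 0.21, 0.43 and 0.46 for SNORD4A, SNORD4B and SNORD42A. TBRG4 had -0.24 ± 0.15 and its SNORA5A, SNORA5B and SNORA5C had 0.12, 0.12 and 0.15. NCL, which encodes nucleolin, had 0.11 ± 0.11 and its SNORA75, SNORD20 and SNORD82 had -0.55, 0.03 and 0.20, and the 4 members of RPL13A ranged over -0.46 to -0.08.

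**Figure D3:**
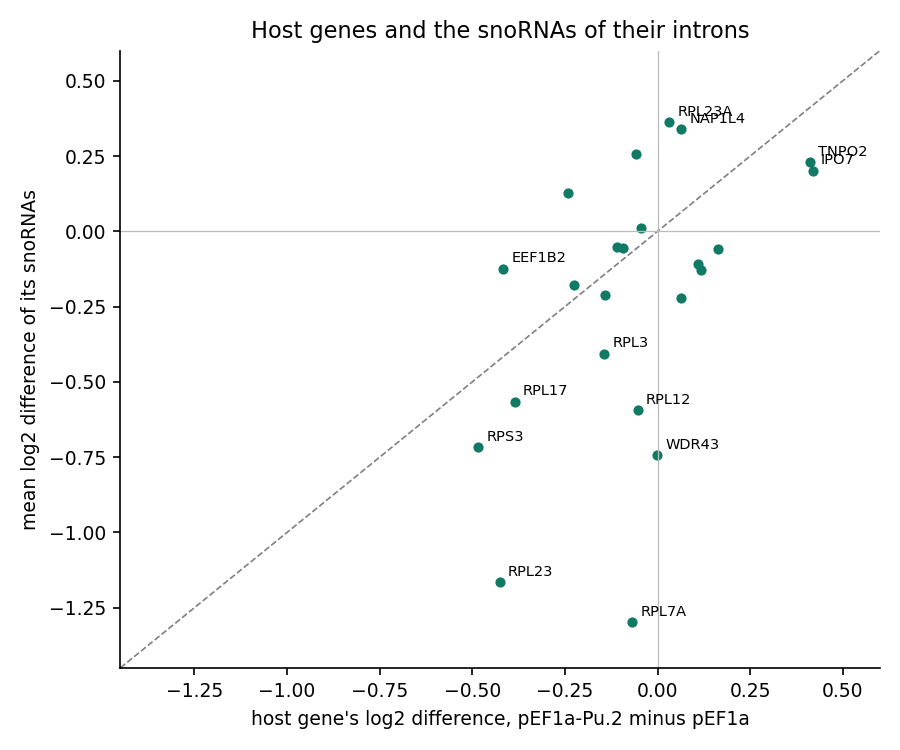
Log2 difference of each of 23 host genes (x axis) against the mean log2 difference of its snoRNA members (y axis), with equal values on the dashed line. The points of RPL7A and RPL23 lie far below the line, and Pearson's r was 0.50.

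The largest spread was between the vector lines, and it was shared by many snoRNAs. It was not particular to them, since listed genes of snoRNA proteins and pre-rRNA processing shared it, as given below. The pattern was noticed in the values and is therefore described without a test, over the brighter probe sets (mean level at or above the array's median of 5.37). Of 52 such C/D members, 27 had their highest level in the third vector line and 22 their lowest in the first, where 22.4% and 20.0% of all brighter probe sets did so. These are 51.9% and 42.3% of the C/D members. Of 39 such H/ACA members, 15 (38.5%) were highest in the third vector line and 5 (12.8%) lowest in the first.

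The median deviation of the brighter C/D members from their own means was 0.08, 0.08 and -0.14 in the pEF1α-Pu.2 lines and -0.22, -0.12 and 0.34 in the vector lines. For the brighter H/ACA members it was -0.03, -0.01 and -0.02 in the pEF1α-Pu.2 lines and 0.01, 0.01 and 0.21 in the vector lines. Over all brighter probe sets each line's median deviation lay between -0.01 and 0.03. The third vector line was thus high in both classes, whereas the first vector line was low in the C/D class and near its mean in the H/ACA class.

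**Figure D4:**
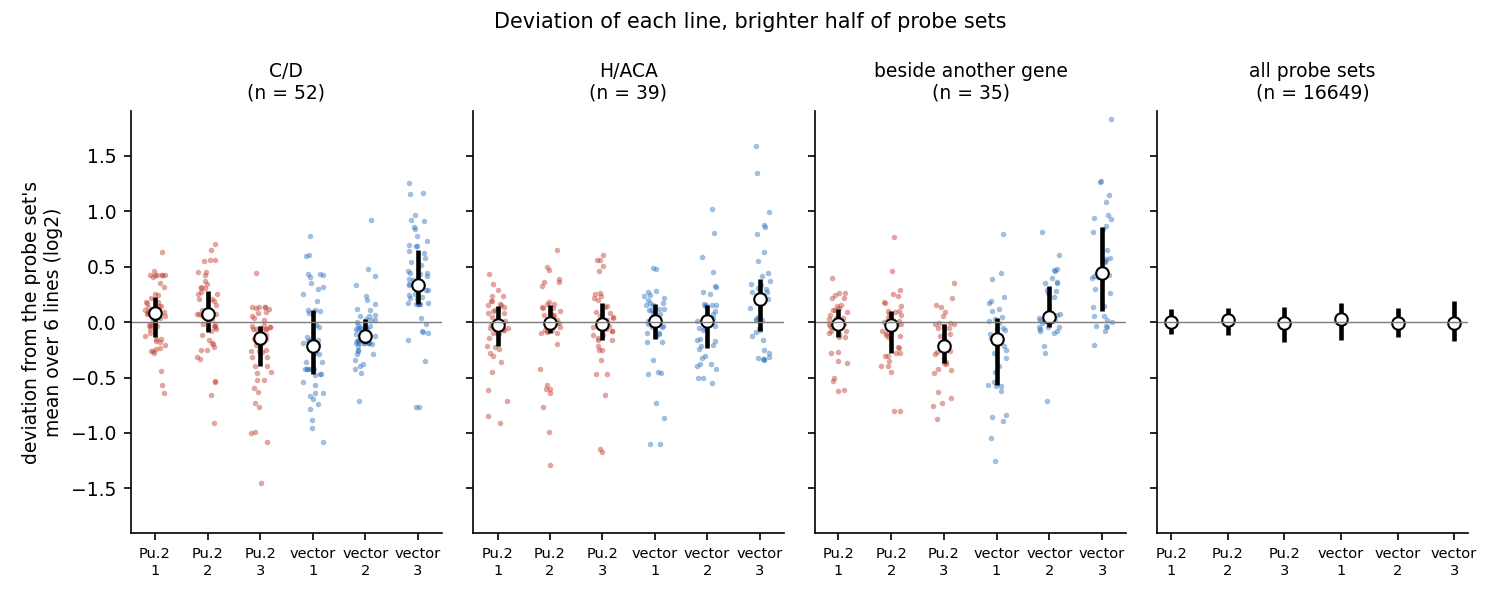
Deviation of each line from the probe set's mean over 6 lines (log2, y axis), with pEF1α-Pu.2 lines in red and vector lines in blue, for the brighter C/D members, H/ACA members, probe sets that list a snoRNA beside another gene, and all probe sets. Open circles are medians and black bars the interquartile ranges, and the third vector line stands high in the 3 snoRNA panels (0.34, 0.21 and 0.44).

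The snoRNAs of 1 host tended to share the pattern. GAS5, a noncoding host with 7 members, had all 7 highest in the third vector line, and SNORD44 had 9.13, 8.83 and 9.12 in pEF1α-Pu.2 lines and 7.95, 9.19 and 9.95 in vector lines. SNORD78 had 9.92, 10.11 and 9.76 in pEF1α-Pu.2 lines and 9.48, 9.75 and 10.68 in vector lines. SNORD81 had 10.26, 10.41 and 10.14 in pEF1α-Pu.2 lines and 10.12, 10.30 and 10.72 in vector lines. In these 3 the pEF1α-Pu.2 lines lay between the extremes of the vector lines, and the group differences were between -0.11 and 0.00.

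SNORD30 and SNORD28 of SNHG1 behaved in the same way. SNORD30 had 10.29, 10.56 and 9.92 in pEF1α-Pu.2 lines and 9.52, 9.79 and 11.03 in vector lines, and SNORD28 had 10.22, 10.31 and 10.00 in pEF1α-Pu.2 lines and 9.09, 10.04 and 10.59 in vector lines. The third vector line was highest in all 8 probe sets that list a snoRNA of SNHG1, 6 of them together with the host. The widest range was that of the probe set of SNHG1 and SNORD25, with 5.65, 5.13 and 5.62 in pEF1α-Pu.2 lines and 2.89, 5.88 and 7.23 in vector lines.

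SNORD50A of SNHG5 had 7.87, 8.31 and 7.50 in pEF1α-Pu.2 lines and 7.27, 7.71 and 9.12 in vector lines. SNORA33 of RPS12 had 8.75, 8.99 and 8.65 in pEF1α-Pu.2 lines and 7.53, 8.23 and 9.62 in vector lines. SNORA20 ranged over 4.37 to 5.92 in pEF1α-Pu.2 lines and over 5.19 to 7.24 in vector lines. These members, with SNORD44, had some of the largest SDs within a group (0.97, 1.07, 1.04 and 1.01 in vector lines, in the order SNORD50A, SNORA33, SNORA20 and SNORD44), whereas SNORD34 of RPL13A had its largest SD (1.04) among pEF1α-Pu.2 lines, with 5.46, 5.87 and 3.91.

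Of the other host families, some lacked the pattern and some had it. Of the 3 members of RPL3 and the 3 of RPL23A, 1 was highest in the third vector line, and the 4 probe sets that list SNORA70 beside RPL10 were all lowest in the third pEF1α-Pu.2 line. The 6 probe sets of TAF1D snoRNAs, which all list the host too, were lowest in the first and highest in the third vector line, and so were the 3 members of RABGGTB. The probe set of RABGGTB itself had 10.95, 10.75 and 10.79 in pEF1α-Pu.2 lines and 10.40, 10.89 and 11.34 in vector lines. TAF1D itself was also highest in the third (9.67) and lowest in the first (9.26) vector line. Of the 35 hosts with a probe set of their own, 11 were highest in the third vector line and 12 lowest in the first. Of the 23 with a member, 5 and 8 were. The shares of all brighter probe sets were 22.4% and 20.0%.

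**Figure D5:**
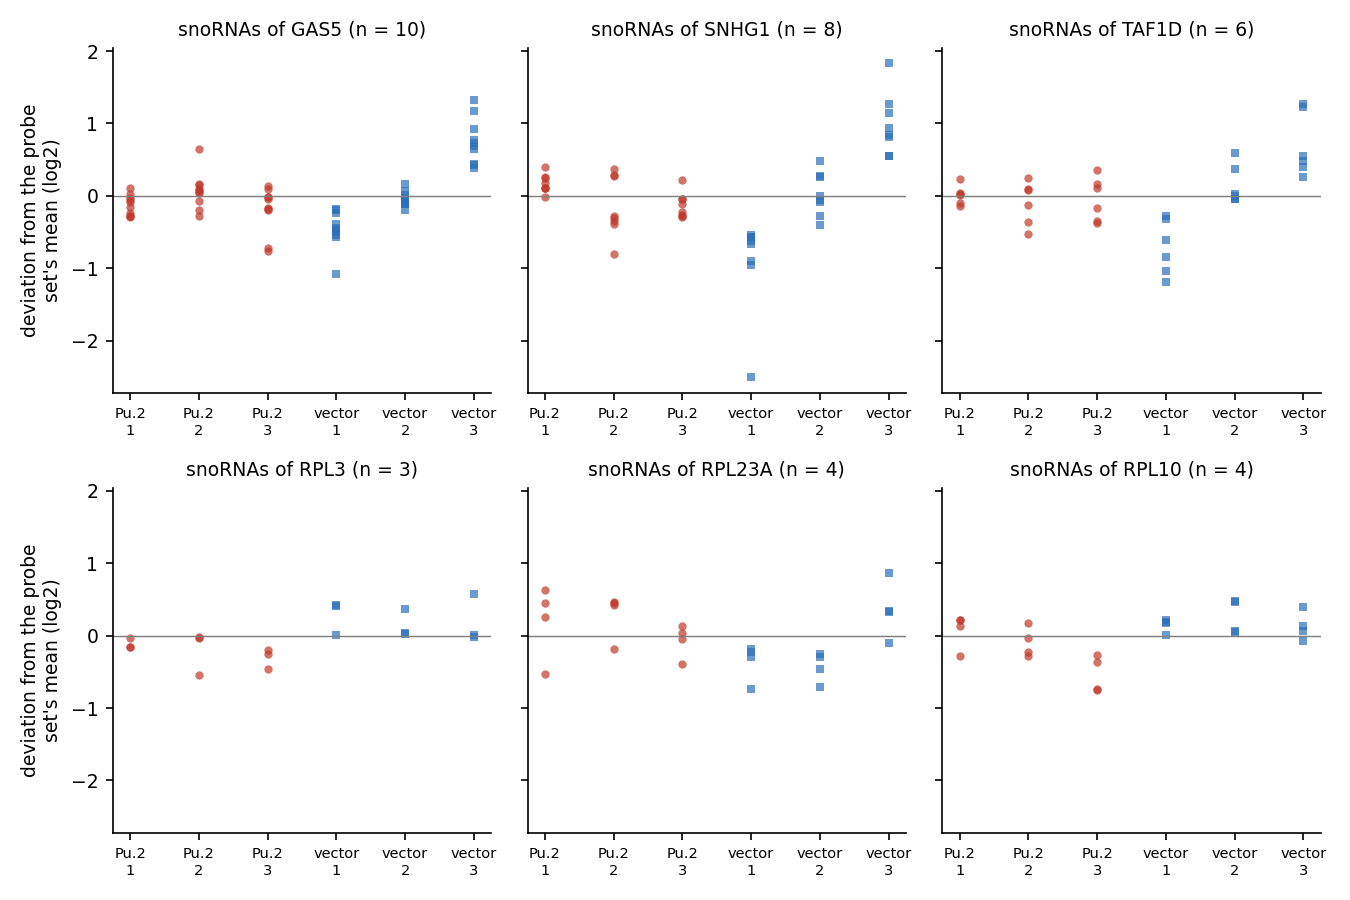
Deviation of each line from the probe set's mean (log2, y axis) for probe sets that list snoRNAs of 6 hosts, with pEF1α-Pu.2 lines as red circles and vector lines as blue squares. In GAS5, SNHG1 and TAF1D the third vector line is highest for all probe sets (10, 8 and 6), and in RPL3, RPL23A and RPL10 it is not.

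The 51 probe sets that list a snoRNA beside another gene had a median log2 difference of -0.12. None was called, 0 had all pEF1α-Pu.2 lines above the vector lines and 5 (9.80%) had them below, against 7.42% and 5.91% of all probe sets. The 5 included SNORA56 with DKC1, the gene of dyskerin itself, with 4.90, 4.93 and 4.54 in pEF1α-Pu.2 lines and 6.08, 5.36 and 5.81 in vector lines (difference -0.96, adjusted p 0.257). The probe set with DKC1 alone had a difference of -0.01 with overlap, so the signal of the shared one cannot be assigned to either gene.

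One of the shared probe sets covers SNORA36A, DKC1 and the microRNA gene MIR664B, whose hairpin lies within the snoRNA gene on the X chromosome. The mature strand is shown as an example of a microRNA read from a snoRNA, with its seed in capitals (bases 2 to 8; RefSeq, GRCh38.p14, chrX:154768635-154768656, plus strand).
hsa-miR-664b-3p: uUCAUUUGccucccagccuaca
This probe set had 3.20, 3.58 and 3.71 in pEF1α-Pu.2 lines and 3.63, 3.31 and 2.86 in vector lines, which overlap at a low level.

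The proteins that form snoRNA particles did not pass the test either. Of the core C/D proteins, FBL (fibrillarin, the methyltransferase) had 11.18, 11.04 and 10.68 in pEF1α-Pu.2 lines and 11.17, 11.14 and 11.44 in vector lines. NOP58 had a difference of 0.03. NOP56 was measured only beside SNORD56, and SNU13 only beside ANXA2, so their signals cannot be assigned to 1 gene. In both probe sets all pEF1α-Pu.2 lines lay below all vector lines. The limma differences were -0.69 ± 0.21 (adjusted p 0.440) and -0.28 ± 0.16 (adjusted p 0.697). Of the core H/ACA proteins, NOP10 had 11.42, 11.49 and 11.08 in pEF1α-Pu.2 lines and 11.61, 11.54 and 11.57 in vector lines without overlap (difference -0.25, adjusted p 0.699). DKC1, the pseudouridine synthase, NHP2 and GAR1 overlapped, with differences of -0.01, -0.36 and -0.04. 

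Of 15 assembly, cap and transport factors, 8 genes of trimming and decay and 20 genes of RNA polymerase I and pre-rRNA processing that were measured, none was called, and the median differences were -0.13, -0.04 and -0.05. In the trimming and decay list, the exonuclease gene XRN1 had 9.72, 9.48 and 9.76 in pEF1α-Pu.2 lines and 8.90, 9.04 and 9.26 in vector lines (difference 0.59, adjusted p 0.311). PARN, a poly(A) ribonuclease that trims the ends of H/ACA RNAs, had 9.38, 9.12 and 9.43 in pEF1α-Pu.2 lines and 9.73, 9.72 and 9.64 in vector lines (difference -0.39, adjusted p 0.453). Neither pair of groups overlapped. The pattern of the vector lines was seen in these lists too. The third vector line was highest for 9, 5 and 10 genes, in the order of the lists above. The first was lowest for 4, 5 and 10. Of the core proteins with their own probe set, 2 of 2 (C/D) and 3 of 4 (H/ACA) were highest in the third. In the first, 1 and 2 of these were lowest. Of all brighter probe sets, 22.4% were highest in the third and 20.0% lowest in the first.

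Among other small RNAs, the brighter U RNA and microRNA probe sets had low medians in the third vector line, where the brighter snoRNAs had high ones. TERC, the telomerase RNA, which carries an H/ACA domain, had 5.12, 5.15 and 4.94 in pEF1α-Pu.2 lines and 4.65, 4.71 and 4.69 in vector lines (difference 0.39, adjusted p 0.399). The 15 brighter probe sets of spliceosomal and related U RNAs (7 distinct profiles) had a median deviation of -0.48 in the third vector line, where the brighter C/D snoRNAs had 0.34. The lower quartile of these U RNAs was also -0.48, so copies of a repeated profile set that median. Over all 27 U RNA probe sets (19 distinct profiles) it was -0.21. In the same line the 37 brighter microRNA probe sets had -0.16. The 8 brighter small Cajal body RNAs, relatives of snoRNAs that guide changes in spliceosomal RNAs, had 0.20.

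All 8 measured marker genes of K562 cells lay above the median level in all lines. HBZ, the embryonic zeta globin, had 12.31, 12.27 and 11.92 in pEF1α-Pu.2 lines and 10.85, 10.27 and 10.62 in vector lines (difference 1.59, adjusted p 0.0566). Of 6 markers of other cell types, EPCAM (10.28 to 11.08) and COL1A1 (6.29 to 6.72) also lay above the median level. Library medians ranged over 5.34 to 5.40 in pEF1α-Pu.2 lines and over 5.30 to 5.42 in vector lines, and no scan date or batch is given in the sources used here, so a batch cannot be told apart from the clones.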

How the data were processed

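The authors measured total RNA of 6 monoclonal K562 lines on Human Gene 1.0 ST arrays, used Affymetrix Expression Console, and deposited 1 log2 value for every probe set and line. The algorithm behind those values, and its version, is not given in the sources used here. Of 33297 probe sets, 19460 carried 1 symbol in the platform annotation, 1754 several and 12083 none. All 203 gene IDs of the members were found in the gene table of GRCh38.p14. Levels of different probe sets were set against each other only to split the array at its median and to choose members to name, and such an order also holds differences between probes.

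The groups were compared over all 33297 probe sets by limma (version 3.58.1, R 4.3.3; lmFit, then eBayes with no trend), and p-values were adjusted by Benjamini-Hochberg at 0.05. A log2 difference had a median standard error of 0.15, and the 3 lines in each group limit the precision. The p-values measure the spread between these clones. Further summaries used Python 3.11.15 and pandas 2.3.3.

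The named members of each class were up to 6 with the largest difference in either direction among those without overlap of the groups. To these were added the 5 of highest level and the 3 of largest SD within a group. The rule also named snoRNAs listed for pre-rRNA processing, the highest member of each tandem family, hosts with 3 or more members and the core snoRNA proteins. One host that this rule names is not reported here. Other names (the probe sets of TAF1D, RABGGTB, RPL10, SNHG1 with SNORD25, SNORA56 and MIR664B, the hosts RPS3, RPL23 and RPL7A, XRN1, PARN, TERC, HBZ, EPCAM and COL1A1) were picked once their values had been seen. The members and lists were chosen with earlier results of these data known. Alternatives included a block on replicate number, single lines left out, quantile normalization, median centring, robust eBayes with a trend, array weights, a filter at the median level, shared probe sets counted, the brightest probe set per gene, tandem families left out and a plain equal-variance test.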

Additional observations from a re-analysis of the deposited data

How the results depend on the processing

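No member was called in either class under any of the alternatives except without the third vector line, where 1 C/D member (SNORD61) was lower. Leaving out 1 line at a time thus gave 0 to 1 lower C/D calls, and 0 in the other class and direction. At an unadjusted p under 0.05, array weights gave 6 higher and 7 lower C/D members and 6 and 9 H/ACA members, and the plain equal-variance test 2 and 2 C/D members, against 2 and 6 (C/D) and 1 and 4 (H/ACA). Without the third vector line 9 C/D members were higher and 5 lower, and without the first vector line 6 H/ACA members were higher and 10 lower. Unadjusted shares of the whole array under these settings are not given here, so these counts are no result about snoRNAs. Adjusted calls on the array were 49 higher and 94 lower with array weights, and 0 with the plain test. They were 100 and 122 without the third vector line, and 2 and 8 without the first. The median log2 difference lay between -0.0648 and 0.0378 for C/D and between -0.0456 and 0.0191 for H/ACA, so its sign changed between settings. The SD of the line medians was 0.216 for C/D and 0.0973 for H/ACA. That SD is of levels and is wide beside these medians, so shifts under it say little about stability. With the replicate number as a block the medians were 0.00254 and 0.0122, no member was called, and the calls on the array were 3 higher and 3 lower. Same-numbered lines deviated with correlations of -0.12, -0.11 and -0.03, so the numbers do not pair the lines. The members without overlap were chosen for it, so the sign of their differences says nothing about stability. SNORD61 ranged over -1.49 to -1.01 with adjusted p between 0.00867 and 0.649. Counts of brighter C/D members highest in the third vector line were 23 to 28 under quantile normalization, median centring or repeated profiles counted once, against 27. Those lowest in the first vector line were 18 to 24, against 22, with 18 when repeated profiles were counted once. These alternatives were chosen after seeing the data. Levels near the low end of the array limit what could be measured. Mean levels lay under the array's median for 83 of the 135 C/D members, 53 of them tandem copies, and for 27 of the 66 H/ACA members.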
